A study of Mus musculus with 16 samples.

Results

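The genes described here encode the T cell receptor (TCR) complex and the proteins that act directly beneath it. They were listed by name, from the known membership of the pathway, with earlier results of these data known. The list holds 42 genes of the 54532 in the count table: 7 receptor, coreceptor and costimulatory chains, 4 kinases, 10 adaptors, 6 exchange factors and further effectors, among them a phospholipase, and 15 brakes. All 42 were detected in every library (at least 333 counts) and passed the filter on low counts in every comparison. RNA sequencing was done on TCF1+CD8+ T cells, the stem-like state of CD8+ T cells, made in vitro by activating naive CD8+ T cells from C57BL/6J spleens repeatedly over 4 days. Cells were left untreated or were given prostaglandin E2 (PGE2) at 100 ng/ml, beginning 1 h before stimulation. They then spent 4 h in 85 U/ml interleukin-2 (IL-2), either alone (unstimulated) or with beads carrying antibodies to CD3 and CD28 at 1 bead per cell (stimulated). The unstimulated cells therefore also received IL-2, and all cells had been activated through the TCR earlier. There were 4 libraries in each of the 4 groups: untreated unstimulated, PGE2-treated unstimulated, untreated stimulated and PGE2-treated stimulated. The cells were a cultured model of one mouse strain, and since the labels do not say whether the replicates came from separate mice, p-values measure the spread between these libraries, which may be technical.

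When a TCR binds its ligand, the kinase Lck, brought in by the CD8 coreceptor, phosphorylates the CD3 and zeta chains. Zap70 then docks on these chains and phosphorylates the adaptors Lat and SLP-76 (encoded by *Lcp2*), on which phospholipase C gamma 1 and exchange factors for Ras and other small GTPases assemble. Phosphatases, ubiquitin ligases, diacylglycerol kinases and inhibitory receptors restrain each of these steps. PGE2 signals in T cells through receptors that raise cyclic AMP, which acts through protein kinase A and the transcription factor CREB.

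The libraries held 22678254 to 42950763 counts assigned to genes. Markers of CD8+ T cells summed to 3253 to 5212 CPM (counts scaled to library size with TMM factors), with *Tcf7*, which encodes TCF1, at 289 to 1540 CPM. *Tcf7* averaged 1175 CPM in untreated and 1187 CPM in PGE2-treated unstimulated cells. In stimulated cells its averages were lower, 309 CPM untreated and 407 CPM with PGE2. Of the 3 CD4+ T cell markers, *Cd4* reached at most 1.87 CPM, *Foxp3* measured 3.09 to 9.07 CPM and *Zbtb7b* 10.3 to 34.4 CPM. Their sum was 26.9 to 34.4 CPM in untreated unstimulated, 28.6 to 40.1 in PGE2-treated unstimulated, 16.9 to 22.5 in untreated stimulated and 14.5 to 26.6 CPM in PGE2-treated stimulated cells. Myeloid markers summed to at most 0.634 CPM and erythroid markers to at most 0.821 CPM, with *Hba-a2*, *Hbb-bs* and *Hbb-bt* at 0 in all 16 libraries. Of the NK cell markers, *Ncr1* and *Klra8* were at 0 in all 16 libraries, and the list's sum of 5.55 to 178 CPM was carried by *Eomes*, which CD8+ T cells also express. B cell markers, mostly *Cd79b*, summed to 12.02 to 21.01 CPM in untreated unstimulated, 10.1 to 17.1 in PGE2-treated unstimulated, 4.92 to 11.7 in untreated stimulated and 4.47 to 9.78 CPM in PGE2-treated stimulated cells. Markers of gamma-delta T cells summed to 1.62 to 3.71 CPM. The part of these low signals in the members' values was not tested. In bulk RNA, fewer cells of a type and less RNA per cell cannot be told apart.

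Several members are neighbours in the genome (GRCm38, the build of the count table). *Cd3g*, *Cd3d* and *Cd3e* lie within 40056 bases of chromosome 9, *Cd3g* (chr9:44969572-44980431, minus strand) and *Cd3d* (chr9:44981786-44987339, plus strand) being transcribed away from each other across 1354 bases, and *Cd3e* at chr9:44998740-45009627 on the minus strand. *Cd8b1* (chr6:71322788-71337494) and *Cd8a* (chr6:71373427-71379173) lie 35932 bases apart on the plus strand, and *Cd5* (chr19:10718143-10738974) and *Cd6* (chr19:10789341-10830058) 50366 bases apart on the minus strand. Exons of 14 members share bases with another gene. The largest shares were in *Cd247* (chr1:165788681-165877277, plus strand), with 56.4% of its exon bases covered by exons of *Pou2f1* on the other strand, and in *Sla2* (chr2:156872457-156887192, minus strand), with 23.6% covered by *Rab5if* on the other strand. *Pou2f1* averaged 30.0 CPM against 246 for *Cd247*, and *Rab5if* 37.5 CPM against 101 for *Sla2*, without TMM scaling. By group and with TMM scaling, *Sla2* averaged 138 CPM in untreated and 171 CPM in PGE2-treated unstimulated cells. In stimulated cells it averaged only 28.2 CPM untreated and 55.6 CPM with PGE2. Whether reads were counted by strand is not given in the sources used here, so the values of these pairs are uncertain to that extent.

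RefSeq promoter windows (250 bases before to 50 after a transcription start, GRCm38.p6) were at hand for 31 of the 42 members, 43 windows in all. They were searched on both strands for the cyclic AMP response element TGACGTCA, its half-site TGACG, of which the full element holds one on each strand, and the AP-1 site TGANTCA. The full element was found in 1 member window, at *Zap70*, and in 1.79% of all 32851 windows. The half-site was found in 6 member windows (13.95%), belonging to *Cd3e*, *Dgka*, *Nck1*, *Sla2* and *Zap70*, against 20.8% of all windows. The AP-1 site was in 0 of the 43 member windows and in 7.81% of all windows. A match describes letters only, and the absence of one says nothing about the factor. The windows below are those of 5 chosen members. *Lcp2* (upward) and *Sla2* (downward) are the members whose RNA moved furthest with stimulation in cells without PGE2. *Zap70* is the kinase gene with the full element, *Fyb* an adaptor gene raised by PGE2 in both states, and *Cd3e* the CD3 chain with a half-site. The *Fyb* window belongs to a start inside the gene, which begins at chr15:6522853. Of the *Zap70* windows, only the one with the full element is shown. Capitals mark half-sites, and where 2 overlap, the full element.
*Lcp2*, chr11:34046678-34046977, plus strand: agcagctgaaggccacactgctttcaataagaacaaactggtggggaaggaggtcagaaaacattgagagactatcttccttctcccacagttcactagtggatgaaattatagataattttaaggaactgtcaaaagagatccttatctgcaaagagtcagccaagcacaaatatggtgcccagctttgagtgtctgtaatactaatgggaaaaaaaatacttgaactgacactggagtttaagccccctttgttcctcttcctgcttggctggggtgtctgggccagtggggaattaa
*Sla2*, chr2:156887172-156887471, minus strand: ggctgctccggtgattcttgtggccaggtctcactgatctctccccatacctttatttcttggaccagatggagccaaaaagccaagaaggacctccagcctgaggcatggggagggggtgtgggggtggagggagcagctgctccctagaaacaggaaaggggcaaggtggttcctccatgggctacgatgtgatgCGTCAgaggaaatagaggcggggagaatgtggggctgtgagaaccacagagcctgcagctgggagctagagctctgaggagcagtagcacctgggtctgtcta
*Zap70*, chr1:36761548-36761847, plus strand: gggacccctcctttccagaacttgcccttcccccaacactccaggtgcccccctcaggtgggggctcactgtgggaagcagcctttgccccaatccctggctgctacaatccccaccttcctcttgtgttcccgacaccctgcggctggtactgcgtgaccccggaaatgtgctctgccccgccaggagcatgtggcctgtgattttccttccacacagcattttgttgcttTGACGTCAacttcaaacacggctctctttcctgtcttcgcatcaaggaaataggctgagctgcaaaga
*Fyb*, chr15:6579597-6579896, plus strand: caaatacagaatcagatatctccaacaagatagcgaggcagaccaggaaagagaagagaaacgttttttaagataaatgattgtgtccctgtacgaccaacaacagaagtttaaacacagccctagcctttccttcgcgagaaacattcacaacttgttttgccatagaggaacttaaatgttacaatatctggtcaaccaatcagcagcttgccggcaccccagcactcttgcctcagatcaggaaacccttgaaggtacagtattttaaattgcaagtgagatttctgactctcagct
*Cd3e*, chr9:45009562-45009861, minus strand: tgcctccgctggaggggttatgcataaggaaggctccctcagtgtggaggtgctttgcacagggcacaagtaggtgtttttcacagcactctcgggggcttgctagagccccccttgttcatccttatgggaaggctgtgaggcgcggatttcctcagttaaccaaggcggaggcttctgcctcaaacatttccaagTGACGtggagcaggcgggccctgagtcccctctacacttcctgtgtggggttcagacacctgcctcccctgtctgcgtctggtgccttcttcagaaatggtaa

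Levels per gene length (FPKM as deposited, which divides fragment counts by gene length and library size) spanned a wide range. For some members the deposited length differs from the exon bases of the annotation GENCODE M21. Among them are *Ubash3a* (3328 against 11239 bases), *Cd5* (2069 against 4928), *Cd6* (3404 against 7968) and *Malt1* (11735 against 18040). Levels and ratios between genes depend on the length taken, and changes between groups do not. The coreceptor chains *Cd8b1* and *Cd8a* averaged 363 and 243 FPKM over the 16 libraries, followed by *Cd3d* (203), *Lck* (174), *Lat* (144) and *Ptpn6* (142). At the other end were *Ubash3b* (3.14), *Pag1* (3.58), *Sos1* (3.84) and *Tespa1* (5.03 FPKM). Among the TCR signalling chains, *Cd3d* stood above *Cd3g* (85.5), *Cd3e* (64.4) and *Cd247* (43.7 FPKM). *Zap70* averaged 101 FPKM, so *Lck* and *Zap70* were the most abundant of the 4 kinases, with *Fyn* at 63.3 and *Prkcq* at 31.2 FPKM.

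**Figure D1:**
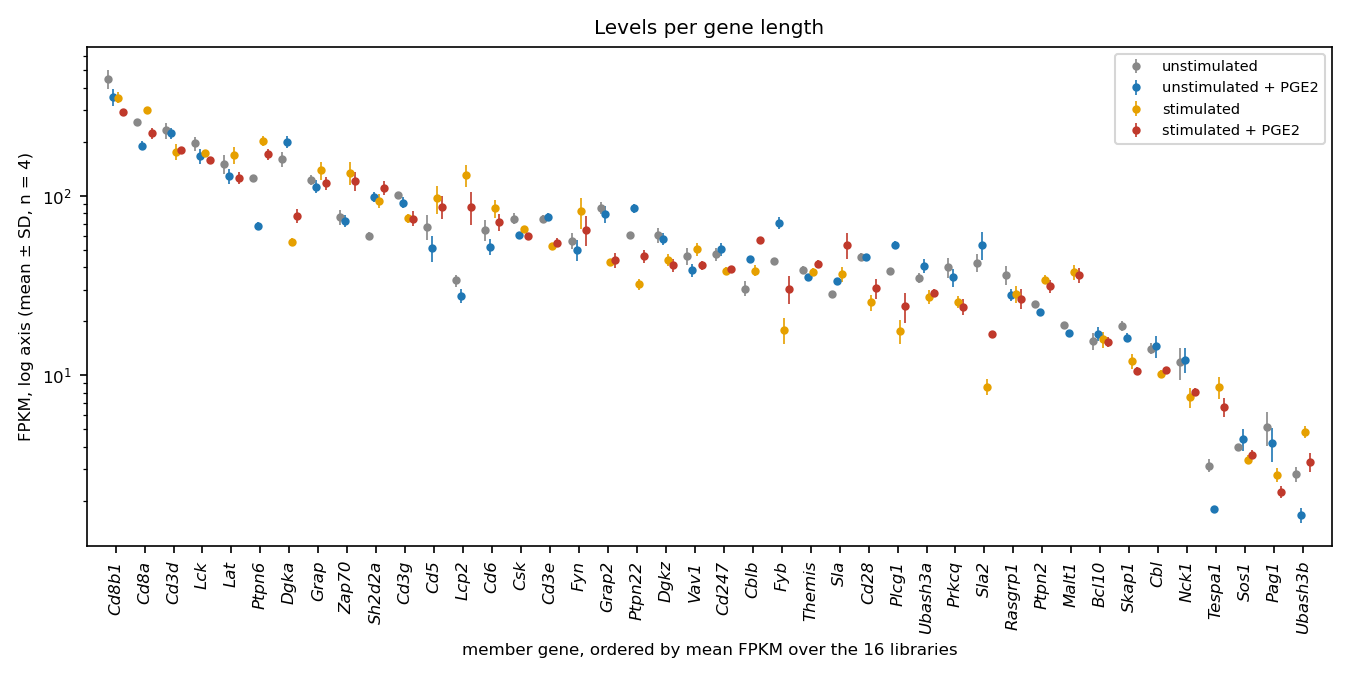
FPKM (log axis) of the 42 members in each group, ordered by the mean over the 16 libraries, with points for group means and bars for the SD of 4 libraries. The list runs from *Cd8b1* at 363 FPKM to *Ubash3b* at 3.14 FPKM, and *Sla2*, *Fyb*, *Lcp2* and *Tespa1* show wide gaps between groups.

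The first question was how 4 h of bead stimulation changed the TCR machinery of cells that had not seen PGE2. Stimulation changed most of it: 37 of the 42 members passed the test (edgeR quasi-likelihood, Benjamini-Hochberg adjusted p under 0.05 over all genes tested), 14 higher and 23 lower. This was a broad response, since 66.5% of all 14205 genes tested passed, 31.7% higher and 34.8% lower. The members' median log2 fold change was -0.22, against -0.03 over all genes tested. The 4 libraries of one group did not overlap those of the other for 35 members, against 61.6% of all genes. With a change of at least 2-fold as well, 7 members were differentially expressed genes (DEGs), against 23.2% of all genes: *Lcp2* and *Tespa1* higher, and *Sla2*, *Dgka*, *Fyb*, *Plcg1* and *Grap2* lower.

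The same comparison in PGE2-treated cells, which shares no library with the first, gave 35 of 42 members past the test, 15 higher and 20 lower, with no overlap between groups for 30. Among all 14507 genes tested, 64.2% passed, 32.5% higher and 31.7% lower, and 60.2% did not overlap. DEGs numbered 9 of 42, against 22.1% of all genes, and added *Malt1*, *Ptpn6* and *Ubash3b* to the risen genes while *Grap2* fell short of 2-fold. In both comparisons 34 members passed in the same direction, 14 higher and 20 lower, which was 91.9% of the members called without PGE2 and 97.1% of those called with it. Among all genes tested in both, the corresponding shares were 87.3% and 89.3%.

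**Figure D2:**
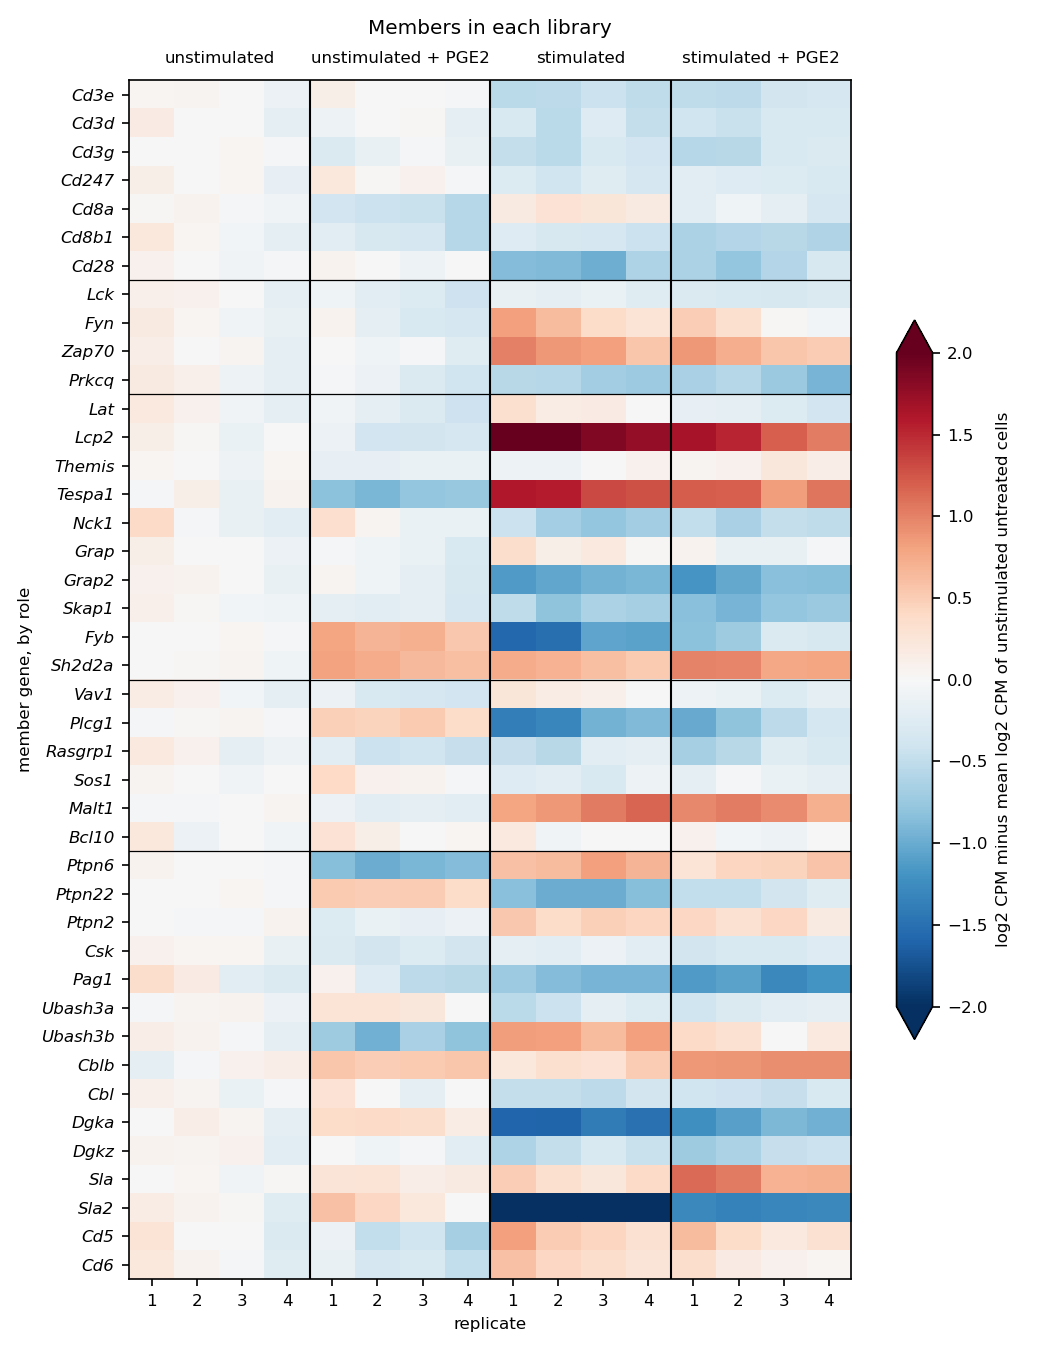
Each of the 42 members (rows, by role) in each of the 16 libraries (columns), as log2 CPM minus the mean log2 CPM of the 4 untreated unstimulated libraries; red is higher and blue lower, and the color scale ends at 2. *Lcp2* and *Tespa1* are red and *Sla2*, *Dgka* and *Fyb* blue in the stimulated libraries, and *Ptpn6*, *Tespa1* and *Ubash3b* are blue in the unstimulated libraries with PGE2.

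The CD3 and zeta chains of the receptor fell modestly together. All 4 CD3 and zeta chains, which carry the tyrosine motifs that start the signal, passed the test downward with and without PGE2. *Cd3e* measured 326, 332, 321 and 295 CPM in the untreated unstimulated libraries and 218, 220.2, 236 and 224 CPM in the untreated stimulated ones, a 1.43-fold fall (log2 fold change -0.52 ± 0.07 (SE), adjusted p = 1.8e-05). With PGE2 it went from 344, 321, 318 and 308 to 223, 222, 246 and 252 CPM (-0.44 ± 0.06, adjusted p = 0.00014). Every stimulated library lay below every unstimulated one in both arms. *Cd3d* measured 493, 443, 445 and 388 CPM unstimulated and 356, 302, 370.3 and 317 CPM stimulated without PGE2 (-0.41 ± 0.09, adjusted p = 0.0017), and 411, 444, 447 and 389.6 and 333, 324, 357 and 358 CPM with it (-0.29 ± 0.07, adjusted p = 0.0046). *Cd3g* measured 348, 345, 355 and 334 and 247, 239, 280.4 and 264 CPM without PGE2 (-0.44 ± 0.07, adjusted p = 9.6e-05). In the PGE2-treated cells the *Cd3g* values of 283, 313, 335 and 313 and 232, 236, 279 and 284 CPM overlapped (-0.26 ± 0.09, adjusted p = 0.023), and this call was lost without PGE2-treated unstimulated replicate 2 or PGE2-treated stimulated replicate 1 (adjusted p up to 0.064).

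The constant chains of the TCR itself, which are outside the 42, did not all fall. *Trac*, the alpha constant chain, rose from 335 ± 26.6 to 405 ± 20.95 CPM without PGE2 (0.26 ± 0.08, adjusted p = 0.011), with overlapping libraries, and from 303 ± 12.7 to 405 ± 7.48 CPM with it (0.44 ± 0.06, adjusted p = 0.00011). The beta constant chain genes went lower, *Trbc2* in both arms (-0.33 ± 0.08, adjusted p = 0.0032 and -0.20 ± 0.07, adjusted p = 0.035) and *Trbc1* without PGE2 (-0.18 ± 0.07, adjusted p = 0.03), while *Trbc1* differed by -0.10 ± 0.07, adjusted p = 0.26 with it.

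The zeta chain gene followed the same course as the CD3 genes, with the overlap with *Pou2f1* described above. *Cd247* measured 286, 266, 270.1 and 237 CPM unstimulated and 219, 199.6, 224 and 210.1 CPM stimulated without PGE2 (-0.33 ± 0.08, adjusted p = 0.002), and 306, 269, 281 and 257 and 229, 221, 218 and 213 CPM with PGE2 (-0.32 ± 0.07, adjusted p = 0.0021). The costimulatory receptor *Cd28*, which the beads also engage, fell further, from 293 ± 13.4 to 164 ± 17.99 CPM (mean ± SD, n = 4) without PGE2 (-0.85 ± 0.08, adjusted p = 1.1e-06) and from 291 ± 13.1 to 197 ± 26.7 CPM with it (-0.55 ± 0.09, adjusted p = 0.00025).

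The CD8 coreceptor chains, which pair at the cell surface and carry Lck to the TCR, moved in opposite directions. *Cd8a* measured 1006, 1033, 969.5 and 938 CPM unstimulated and 1112, 1209, 1160.2 and 1123 CPM stimulated without PGE2 (log2 fold change 0.21 ± 0.07 (SE), adjusted p = 0.018). It measured 753, 734, 722 and 667 and 840.1, 931, 866 and 784 CPM with PGE2 (0.27 ± 0.07, adjusted p = 0.0084). *Cd8b1* measured 809, 716, 667 and 608 and 581, 555, 550.4 and 515 CPM without PGE2 (-0.36 ± 0.09, adjusted p = 0.0037), and 604, 556, 552 and 469.9 and 446, 466, 472 and 458 CPM with it (-0.23 ± 0.08, adjusted p = 0.022). *Cd8a* was higher in every stimulated library than in any unstimulated one of the same arm. *Cd8b1* was lower in every stimulated library without PGE2, and its groups overlapped with PGE2. The *Cd8a* rise did not pass with upper-quartile scaling, nor without untreated unstimulated replicate 3 or untreated stimulated replicate 2 (adjusted p up to 0.054), nor, with PGE2, without PGE2-treated stimulated replicate 2 (0.059). The *Cd8b1* fall with PGE2 was lost without PGE2-treated unstimulated replicate 2 (0.059). The FPKM ratio of *Cd8a* to *Cd8b1* averaged 0.58 ± 0.0516 in untreated unstimulated, 0.539 ± 0.0292 in PGE2-treated unstimulated, 0.854 ± 0.0506 in untreated stimulated and 0.757 ± 0.0484 in PGE2-treated stimulated libraries (SD, n = 4).

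Of the kinases, *Zap70* and *Fyn* rose and *Prkcq*, protein kinase C theta, fell in both arms. *Zap70* measured 262, 241, 249 and 208 CPM unstimulated and 484, 438, 423 and 350.2 CPM stimulated without PGE2, a 1.75-fold rise (log2 fold change 0.81 ± 0.11 (SE), adjusted p = 2.8e-05). With PGE2 the values were 239.7, 225, 234 and 202 and 436, 395, 353 and 341 CPM (0.78 ± 0.10, adjusted p = 4.5e-05). The groups did not overlap in either arm. *Fyn*, a Src-family kinase like *Lck*, changed by 0.53 ± 0.12, adjusted p = 0.0021 without PGE2 and by 0.41 ± 0.13, adjusted p = 0.019 with it, on the log2 scale, the second being lost without PGE2-treated unstimulated replicate 3 or 4 or PGE2-treated stimulated replicate 2 (adjusted p up to 0.082). *Prkcq* changed by -0.65 ± 0.09, adjusted p = 3.2e-05 and -0.50 ± 0.10, adjusted p = 0.0012. *Lck*, which starts the cascade, changed little: 644, 640.2, 598 and 534 CPM unstimulated against 545, 531, 549 and 510.2 CPM stimulated without PGE2 (-0.19 ± 0.08, adjusted p = 0.044), and 565, 513, 501 and 453 against 491, 489, 482 and 495 CPM with it (-0.04 ± 0.07, adjusted p = 0.65). The first of these overlapped between groups and passed in 2 of 8 fits that left out 1 library (adjusted p up to 0.11).

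The adaptors split, with the steepest rises of the whole list beside some of the steepest falls. *Lcp2*, encoding the scaffold SLP-76, rose 3.84-fold, from 171, 161, 144 and 157 to 699, 642, 573 and 536 CPM without PGE2 (log2 fold change 1.94 ± 0.10 (SE), adjusted p = 1.7e-08). It rose 3.21-fold with PGE2, from 145, 122, 122 and 126 to 494, 453, 361 and 322 CPM (1.68 ± 0.14, adjusted p = 2.9e-06). The lowest stimulated library was above the highest unstimulated one by a wide margin in each arm. *Tespa1*, a low-level gene known from thymocyte selection, measured 20.1, 22.5, 18.7 and 21.7 CPM unstimulated and 62.99, 61.3, 51.7 and 49.8 CPM stimulated without PGE2 (1.43 ± 0.10, adjusted p = 1.3e-07), and 11.7, 11.04, 12.1 and 12.2 and 47.7, 47.5, 37.1 and 43.3 CPM with it (1.91 ± 0.10, adjusted p = 1.1e-06). *Sh2d2a*, encoding the Lck-binding adaptor TSAd, measured 378, 382, 388 and 353 and 629, 605, 571 and 540.3 CPM without PGE2 (0.63 ± 0.08, adjusted p = 1.3e-05), and 652, 630.3, 589 and 569.8 and 745, 741, 641 and 649.5 CPM with it (0.20 ± 0.08, adjusted p = 0.045). The unstimulated PGE2 libraries of *Sh2d2a* already overlapped the untreated stimulated ones, and its call with PGE2 passed in 1 of 8 fits that left out 1 library (adjusted p up to 0.22).

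Falling adaptors were those of the integrin-activating module, *Fyb* (ADAP) and *Skap1*, with *Grap2* (GADS, which bridges Lat and SLP-76) and *Nck1*, which links to actin. *Fyb* fell 2.46-fold, from 247, 247, 253 and 240.2 to 83.00, 87.3, 119 and 117 CPM without PGE2 (-1.30 ± 0.11, adjusted p = 3.9e-07), and from 427, 395, 403 and 359.8 to 139.6, 150.2, 203 and 198 CPM with it (-1.19 ± 0.12, adjusted p = 8.3e-06). Every PGE2-treated library stood above all untreated libraries of the same stimulation state. *Grap2* measured 599, 590.1, 558 and 505 and 257, 274, 290.4 and 297 CPM without PGE2 (-1.02 ± 0.08, adjusted p = 1.7e-07), and 584, 529, 492 and 449 and 249, 276, 316 and 313 CPM with it (-0.82 ± 0.09, adjusted p = 2.5e-05). Its relative *Grap* did not share the fall, at 250.1, 231, 231 and 213 and 295, 250.4, 265 and 236 CPM without PGE2 (0.17 ± 0.09, adjusted p = 0.11) and 224, 217, 211 and 187 and 244, 209, 208 and 224 CPM with it (0.09 ± 0.08, adjusted p = 0.33). The FPKM ratio of *Grap* to *Grap2* was 1.43 ± 0.0468 in untreated unstimulated and 3.28 ± 0.518 in untreated stimulated libraries, and 1.43 ± 0.0648 and 2.71 ± 0.489 with PGE2. *Skap1* changed by -0.66 ± 0.08, adjusted p = 8.8e-06 without and -0.58 ± 0.07, adjusted p = 2.6e-05 with PGE2, and *Nck1* by -0.66 ± 0.13, adjusted p = 0.00045 and -0.56 ± 0.10, adjusted p = 0.0006.

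*Lat*, the membrane scaffold on which these adaptors gather, measured 498, 461, 415 and 381 CPM unstimulated and 546, 483, 489 and 437 CPM stimulated without PGE2 (0.14 ± 0.10, adjusted p = 0.22), and 414, 382, 358 and 329 and 391, 384, 360.0 and 333 CPM with it (0.00 ± 0.09, adjusted p = 0.98), overlapping in both. With the replicate number as a block, the values for *Lat* and *Grap* without PGE2 did pass, at adjusted p = 0.023 and 0.021, in the only calls that the pairing changed in that comparison. *Themis*, a Grb2-binding protein of thymocyte selection, differed by -0.04 ± 0.07, adjusted p = 0.58 without PGE2 and by 0.28 ± 0.06, adjusted p = 0.0023 with it, the latter not passing with upper-quartile scaling.

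Beneath the adaptors, *Plcg1*, the phospholipase that makes diacylglycerol and inositol trisphosphate, fell about as far as *Grap2*, and *Malt1*, the paracaspase that works with *Bcl10* toward NF-kB, rose. *Plcg1* measured 307, 320.1, 329 and 306 CPM unstimulated and 120.4, 127, 163 and 171 CPM stimulated without PGE2 (log2 fold change -1.14 ± 0.10 (SE), adjusted p = 8.6e-07), and 438, 429.7, 456 and 408 and 157, 180.4, 218 and 246 CPM with it (-1.10 ± 0.12, adjusted p = 1.5e-05). *Malt1* measured 231, 230.2, 238 and 245 and 406, 431, 487 and 528 CPM without PGE2 (0.96 ± 0.08, adjusted p = 5.1e-07), and 218, 205, 208 and 203 and 461, 477, 454 and 388 CPM with it (1.11 ± 0.08, adjusted p = 2e-06). The groups were apart for both genes in both arms. Its partner *Bcl10* stood at 74.7 ± 7.78 and 76.03 ± 6.42 CPM without PGE2 (0.01 ± 0.09, adjusted p = 0.9) and changed by -0.12 ± 0.08, adjusted p = 0.2 with it. The exchange factor *Vav1* differed by 0.11 ± 0.09, adjusted p = 0.3 and 0.12 ± 0.07, adjusted p = 0.17. Of the Ras exchange factors, *Rasgrp1* changed by -0.37 ± 0.10, adjusted p = 0.0045 without PGE2 and by -0.04 ± 0.09, adjusted p = 0.74 with it, and *Sos1* by -0.24 ± 0.07, adjusted p = 0.0095 and -0.25 ± 0.09, adjusted p = 0.04. The second *Sos1* call passed in 3 of 8 fits that left out 1 library (adjusted p up to 0.09).

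All 15 brakes passed the test without PGE2, 7 higher and 8 lower, and 14 did with PGE2, 7 in each direction. Of all genes 66.5% and 64.2% passed in these comparisons. Among the falling ones were *Sla2* and *Dgka*. *Sla2* encodes a Src-like adaptor that helps to lower surface TCR together with Cbl, and fell furthest of all 42, 4.96-fold without PGE2, from 152, 144, 140.4 and 117 to 25.5, 24.9, 31.8 and 30.7 CPM (log2 fold change -2.31 ± 0.10 (SE), adjusted p = 9.5e-09). With PGE2 it fell 3.04-fold, from 206, 183, 159 and 137 to 56.5, 53.9, 55.7 and 56.4 CPM (-1.61 ± 0.11, adjusted p = 1.4e-06). The overlap of *Sla2* with *Rab5if* described above applies to these values. The related *Sla* moved the other way: 278, 282, 263 and 278 CPM unstimulated and 388, 345, 323 and 359.7 CPM stimulated without PGE2 (0.35 ± 0.07, adjusted p = 0.0011), and 328, 332, 301 and 311 and 604, 568, 445 and 451 CPM with it (0.72 ± 0.11, adjusted p = 0.00019). The FPKM ratio of *Sla* to *Sla2* was 0.678 ± 0.0851 in untreated unstimulated and 4.30 ± 0.759 in untreated stimulated libraries, and 0.638 ± 0.0948 and 3.14 ± 0.512 with PGE2. By FPKM *Sla* was thus the lesser of the pair in every unstimulated library and the greater in every stimulated one. By CPM, which does not divide by gene length, *Sla* was the greater in every library.

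Diacylglycerol kinases remove the diacylglycerol that Plcg1 makes. *Dgka* fell 2.91-fold without PGE2, from 800.2, 875, 834 and 699 to 265, 264, 302 and 283 CPM (-1.54 ± 0.09, adjusted p = 2.6e-08), and from 1027, 1040.3, 1015 and 884 to 341, 376, 431 and 409.7 CPM with it (-1.33 ± 0.08, adjusted p = 1.3e-06). *Dgkz* fell less: 419, 412, 419.6 and 344 to 259.7, 287, 322 and 292 CPM (-0.47 ± 0.09, adjusted p = 0.00034), and 400.4, 375, 389.8 and 338 to 243, 255, 289 and 296 CPM with PGE2 (-0.46 ± 0.08, adjusted p = 0.00047). The FPKM ratio of *Dgka* to *Dgkz* was 2.65 ± 0.117 and 3.47 ± 0.12 in unstimulated cells without and with PGE2, and 1.27 ± 0.0566 and 1.89 ± 0.0681 in stimulated cells. Each step in the order untreated stimulated, PGE2-treated stimulated, untreated unstimulated and PGE2-treated unstimulated was free of overlap between libraries.

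The phosphatases also divided. *Ptpn6*, encoding SHP-1, measured 389, 368, 368 and 364 CPM unstimulated and 560.1, 579, 658 and 593 CPM stimulated without PGE2 (0.67 ± 0.07, adjusted p = 3e-06). With PGE2 it went from 205, 186, 197 and 205 to 452, 500.2, 509 and 553 CPM, a 2.56-fold rise (1.36 ± 0.07, adjusted p = 1.1e-06). *Ptpn22*, which dephosphorylates Lck and Zap70, fell: 429, 436, 442 and 425 to 244, 218, 217 and 239.8 CPM (-0.93 ± 0.07, adjusted p = 1.9e-07) and 623, 608, 616 and 556 to 307, 306, 337 and 367 CPM with PGE2 (-0.85 ± 0.07, adjusted p = 3.9e-06). No libraries overlapped for either gene. *Ptpn2*, which acts on Src-family and JAK kinases, rose by 0.44 ± 0.07, adjusted p = 7.2e-05 and 0.52 ± 0.08, adjusted p = 0.00024.

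*Csk* places the inhibitory phosphate on Lck and is anchored at the membrane by Pag1. *Csk* differed by -0.21 ± 0.07, adjusted p = 0.02 without PGE2, a call lost without untreated stimulated replicate 4 (adjusted p = 0.052), and by 0.03 ± 0.06, adjusted p = 0.71 with PGE2. *Pag1* measured 64.7, 56.6, 43.6 and 41.6 and 30.8, 27.8, 26.7 and 26.7 CPM without PGE2 (-0.89 ± 0.13, adjusted p = 5.2e-05), and 53.8, 42.6, 35.3 and 34.5 and 23.2, 24.2, 20.7 and 22.2 CPM with it (-0.86 ± 0.13, adjusted p = 0.00017). All stimulated *Pag1* values were under all unstimulated ones of their arm.

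Related brakes often moved apart. *Ubash3b*, encoding the phosphatase STS-1 that acts on Zap70, measured 23.6, 22.7, 21.3 and 19.03 CPM unstimulated and 38.4, 38.2, 33.6 and 38.2 CPM stimulated without PGE2 (0.76 ± 0.09, adjusted p = 7.2e-06), and 13.2, 11.1, 13.9 and 12.3 and 28.1, 26.7, 21.7 and 24.6 CPM with it (1.02 ± 0.11, adjusted p = 2e-05). Its relative *Ubash3a* measured 120.2, 127, 128 and 113 and 84.5, 90.9, 107 and 101 CPM without PGE2 (-0.37 ± 0.08, adjusted p = 0.0013), and 148, 148, 144 and 123 and 92.7, 100.4, 105 and 106 CPM with it (-0.46 ± 0.08, adjusted p = 0.0003). The first gene rose and the second fell in both arms, without overlap. The FPKM ratio of *Ubash3a* to *Ubash3b* was 12.5 ± 0.935 and 24.7 ± 3.38 in unstimulated cells without and with PGE2, and 5.73 ± 0.952 and 8.91 ± 1.48 in stimulated cells. The size of this ratio, but not its change between groups, depends on the length taken for *Ubash3a*.

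*Cblb* and *Cbl* encode ubiquitin ligases that target activated signalling proteins. *Cblb* measured 293, 326, 356 and 366 CPM unstimulated and 388, 419, 409 and 473 CPM stimulated without PGE2 (0.31 ± 0.09, adjusted p = 0.007, not passing with upper-quartile scaling), and 489, 468, 479 and 492 and 613, 619, 635 and 639 CPM with it (0.39 ± 0.06, adjusted p = 0.00013). *Cbl* measured 195, 189, 167 and 179.8 and 131, 131, 127 and 142 CPM (-0.47 ± 0.07, adjusted p = 4.2e-05), and 224, 182, 162 and 181 and 138, 136, 132 and 147 CPM with PGE2 (-0.42 ± 0.09, adjusted p = 0.0017). Again one rose and the other fell, and the FPKM ratio of *Cbl* to *Cblb* went from 0.468 ± 0.0766 to 0.268 ± 0.0139 without PGE2 and from 0.329 ± 0.0433 to 0.188 ± 0.00803 with it. *Cd5* and *Cd6*, inhibitory receptors of the scavenger receptor family, rose together. *Cd5* measured 176, 145, 146 and 119 and 257, 207, 196 and 179 CPM without PGE2 (0.51 ± 0.13, adjusted p = 0.0039), and 133, 103, 111 and 91.3 and 225, 187, 166 and 179.7 CPM with it (0.81 ± 0.12, adjusted p = 0.0002). *Cd6* measured 265, 240.0, 223 and 195 and 344, 306, 293 and 275 CPM (0.39 ± 0.10, adjusted p = 0.0049), and 207, 181, 185 and 163 and 293, 257, 243 and 236 CPM with PGE2 (0.50 ± 0.09, adjusted p = 0.00081). Their FPKM ratio stayed between 0.976 ± 0.0612 in PGE2-treated unstimulated and 1.21 ± 0.0658 in PGE2-treated stimulated libraries.

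**Figure D3:**
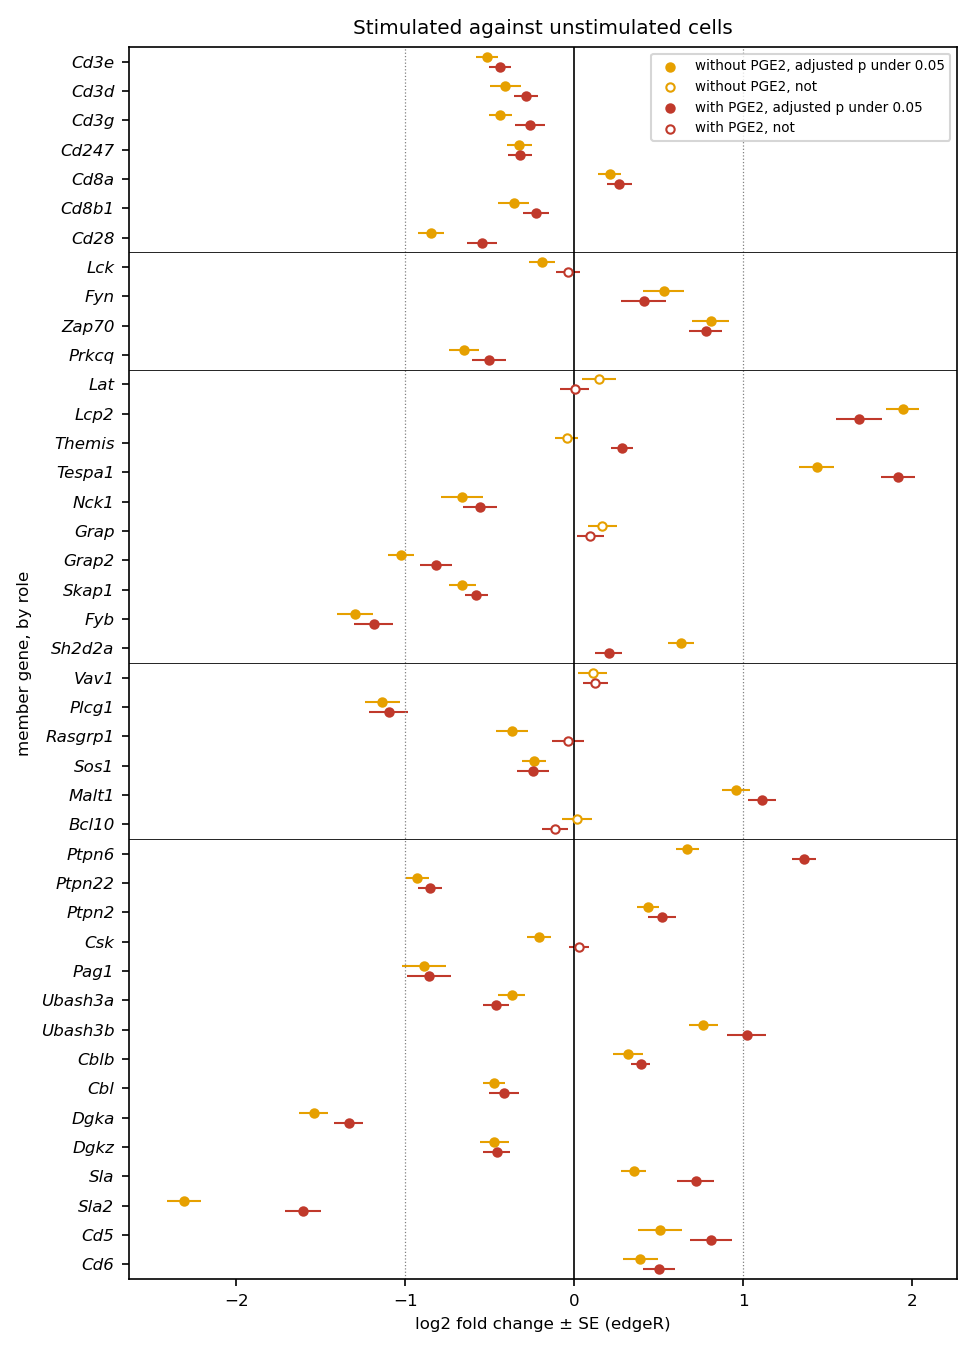
Log2 fold change of stimulated against unstimulated cells (x axis) for the 42 members (y axis, by role) without PGE2 and with PGE2; points are edgeR estimates, bars their SE, filled points passed the test and dotted lines mark 2-fold. *Lcp2* (1.94 and 1.68) and *Tespa1* (1.43 and 1.91) lie farthest right and *Sla2* (-2.31 and -1.61) farthest left.

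The next question was what PGE2 did to the same genes in the absence of bead stimulation. PGE2 changed 23 of 42 members, 9 higher and 14 lower, and 18 members did not overlap between groups. Of all 14505 genes tested 28.4% passed, 12.9% higher and 15.5% lower, and 28.9% did not overlap. The changes were small, and 0 members reached 2-fold at adjusted p under 0.05, and DESeq2 also found 0 at 2-fold. An unadjusted p under 0.05 was found for 26 members and for 5640 of the 14505 genes. Among all genes 3.38% were DEGs. The members' median log2 fold change was -0.12, against -0.001 over all genes. With the replicate number as a block, 35 members passed, 12 higher and 23 lower, beside 47.8% of all genes, and the 35 included all 23. The count was 14 without untreated unstimulated replicate 2 and 13 without PGE2-treated unstimulated replicate 2, beside 21.3% and 21.6% of all genes.

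In stimulated cells PGE2 changed 13 of 42 members, 6 higher and 7 lower, with no overlap for 18. Among all 13922 genes tested 9.84% passed, 6.04% higher and 3.8% lower, 17.9% did not overlap and 1.75% were DEGs. Again 0 members reached 2-fold at adjusted p under 0.05 in edgeR or DESeq2. An unadjusted p under 0.05 was found for 21 members and for 3761 of the 13922 genes. With the replicate block 25 members passed, 10 higher and 15 lower, beside 39.8% of all genes, and they included all 13. The count was 8 without untreated stimulated replicate 2 and 7 without PGE2-treated stimulated replicate 3, beside 4.49% and 4.52% of all genes.

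The PGE2 comparisons in the 2 states share no library. Without the replicate block 11 members passed in both, each in the same direction. This was 47.8% of the 23 members called in unstimulated cells and 84.6% of the 13 called in stimulated cells, against 23.8% and 71.9% for all genes tested in both. Higher in both were the brakes *Ptpn22*, *Cblb*, *Dgka*, *Sla* and *Sla2* and the adaptor *Fyb*. Lower in both were the coreceptor chains *Cd8a* and *Cd8b1*, the scaffold *Lcp2*, the exchange factor *Vav1* and the brake *Ubash3b*. With the block, whose added calls are listed below, *Sh2d2a* and *Plcg1* were also higher in both. *Lat*, *Fyn*, *Tespa1*, *Grap*, *Skap1*, *Ptpn6*, *Pag1*, *Cd5* and *Cd6* were then also lower in both, and *Themis* passed in both with opposite signs. The share of all genes called in both with the block was not computed. The sign of the fold change was the same in both states for 37 of 42 members, and the corresponding share over all genes was not computed.

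**Figure D4:**
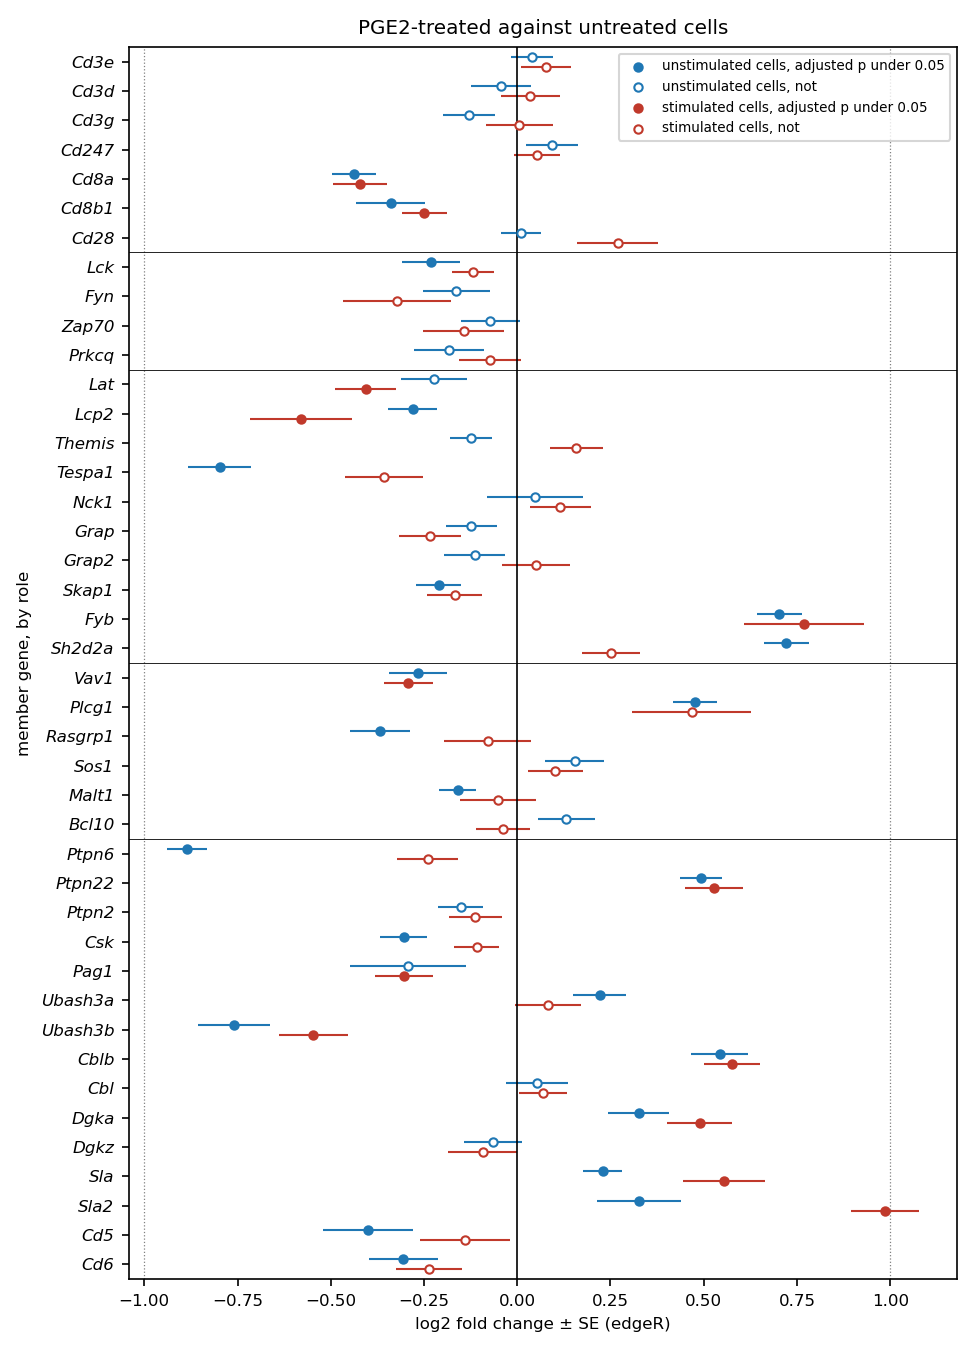
Log2 fold change of PGE2-treated against untreated cells (x axis) for the 42 members (y axis, by role) in unstimulated and in stimulated cells; points are edgeR estimates, bars their SE, filled points passed the test and dotted lines mark 2-fold. *Fyb* (0.70 and 0.77) is to the right and *Cd8a* (-0.44 and -0.42) to the left in both states, and *Ptpn6* (-0.89 and -0.24) differs between them.

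The 5 brakes that were higher with PGE2 in both states include regulators of receptor level, tyrosine phosphorylation, ubiquitination and diacylglycerol. *Sla2* rose with PGE2 from 28.2 ± 3.53 to 55.6 ± 1.22 CPM in stimulated cells, 1.98-fold (log2 fold change 0.99 ± 0.09 (SE), adjusted p = 0.0003), with the 4 treated libraries all above the 4 untreated ones. It passed 2-fold without untreated stimulated replicate 3 or 4 (log2 fold changes 1.05 and 1.03). In unstimulated cells it went from 138 ± 15.1 to 171 ± 29.8 CPM with overlapping libraries (0.33 ± 0.11, adjusted p = 0.049), a call kept in 2 of 8 fits that left out 1 library (adjusted p up to 0.12). The exons that *Sla2* shares with *Rab5if* leave its values uncertain here too. *Ptpn22* rose from 433 ± 7.64 to 601 ± 30.3 CPM in unstimulated cells (0.49 ± 0.06, adjusted p = 9.4e-05) and from 229.7 ± 13.9 to 329 ± 28.95 CPM in stimulated cells (0.53 ± 0.08, adjusted p = 0.0029). *Cblb*, a ligase whose loss is known to lift the need for CD28 costimulation, rose from 335 ± 33.1 to 482 ± 10.7 CPM (0.54 ± 0.08, adjusted p = 0.00032) and from 422 ± 36.2 to 627 ± 12.7 CPM (0.58 ± 0.07, adjusted p = 0.0015). *Cbl* did not pass in either state (log2 fold changes 0.05 and 0.07). *Dgka* rose from 802 ± 75.4 to 991 ± 72.7 CPM (0.33 ± 0.08, adjusted p = 0.012) and from 279 ± 18.03 to 389 ± 39.2 CPM (0.49 ± 0.09, adjusted p = 0.0076). *Dgkz* differed by -0.06 and -0.09, neither passing. *Sla* rose from 275 ± 8.13 to 318 ± 14.5 CPM (0.23 ± 0.05, adjusted p = 0.0073) and from 354 ± 27.4 to 517 ± 80.9 CPM (0.55 ± 0.11, adjusted p = 0.012).

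Other brakes were lower with PGE2. Without the replicate block only *Ubash3b* passed downward in both states. With the block *Ptpn6*, *Pag1*, *Cd5* and *Cd6* did so as well, while no further brake was higher in both. *Ubash3b* fell from 21.7 ± 2.00 to 12.6 ± 1.20 CPM in unstimulated cells, 1.69-fold (-0.76 ± 0.10, adjusted p = 0.00018), and from 37.1 ± 2.35 to 25.3 ± 2.82 CPM in stimulated cells (-0.55 ± 0.09, adjusted p = 0.0059). *Ubash3a* rose in unstimulated cells (0.22 ± 0.07, adjusted p = 0.039, kept in 2 of 8 fits that left out 1 library, adjusted p up to 0.1) and differed by 0.08 ± 0.09, adjusted p = 0.57 in stimulated cells. In unstimulated cells *Ubash3a* thus moved up and *Ubash3b* down. *Ptpn6* fell 1.85-fold in unstimulated cells, from 372 ± 11.2 to 199 ± 8.89 CPM (-0.89 ± 0.05, adjusted p = 3e-06), the largest fall of the list there. *Csk* fell in unstimulated cells (-0.30 ± 0.06, adjusted p = 0.0041) and differed by -0.11 ± 0.06, adjusted p = 0.26 in stimulated cells. *Cd5* and *Cd6* fell in unstimulated cells (-0.40 ± 0.12, adjusted p = 0.028 and -0.31 ± 0.09, adjusted p = 0.029), each kept in 2 of 8 fits that left out 1 library (adjusted p up to 0.11). *Pag1* passed in stimulated cells (-0.30 ± 0.08, adjusted p = 0.039), from 27.99 ± 1.97 to 22.6 ± 1.47 CPM, and in 1 of 8 fits that left out 1 library (adjusted p up to 0.13).

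Of the receptor chains, those of the coreceptor fell, and those of the CD3 complex did not pass without the replicate block. *Cd8a* fell from 987 ± 41.4 to 719 ± 36.97 CPM in unstimulated cells (log2 fold change -0.44 ± 0.06 (SE), adjusted p = 0.00028) and from 1151 ± 43.9 to 855 ± 60.7 CPM in stimulated cells (-0.42 ± 0.07, adjusted p = 0.0059), with no overlap in either state. *Cd8b1* fell from 699.7 ± 85.03 to 545 ± 55.7 CPM (-0.34 ± 0.09, adjusted p = 0.018, lost without replicate 2 of either unstimulated group, adjusted p up to 0.074) and from 550.3 ± 26.9 to 461 ± 10.96 CPM (-0.25 ± 0.06, adjusted p = 0.03, kept in 1 of 8 fits that left out 1 library, adjusted p up to 0.1). Log2 fold changes of *Cd3e*, *Cd3d*, *Cd3g* and *Cd247* were 0.04, -0.04, -0.13 and 0.09 in unstimulated and 0.08, 0.04, 0.01 and 0.05 in stimulated cells, each with overlapping libraries. *Cd28* differed by 0.01 and 0.27, neither passing. With the replicate block *Cd3g* and *Cd247* passed in unstimulated cells and *Cd28* in stimulated cells, as given below.

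The kinases had small fold changes with PGE2. *Lck* passed in unstimulated cells, from 604 ± 50.9 to 508 ± 45.8 CPM (-0.23 ± 0.08, adjusted p = 0.044), in 2 of 8 fits that left out 1 library (adjusted p up to 0.18), and differed by -0.12 ± 0.06, adjusted p = 0.21 in stimulated cells. Without the replicate block the other kinases had negative log2 fold changes that did not pass, *Zap70* at -0.07 and -0.14, *Fyn* at -0.16 and -0.32, and *Prkcq* at -0.18 and -0.07 in unstimulated and stimulated cells. The replicate numbers were taken to pair the libraries in both of these comparisons. With the replicate block, *Fyn* passed in unstimulated and in stimulated cells (adjusted p = 0.00089 and 0.00017). *Prkcq* then passed in unstimulated cells (0.0004) and *Zap70* in stimulated cells (0.036). *Fyn* measured 456, 398, 332 and 312 CPM in untreated and 361, 321, 261 and 248 CPM in PGE2-treated stimulated replicates 1 to 4, lower in every pair, although the groups overlapped.

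Among the adaptors, *Fyb* rose from 247 ± 5.30 to 396 ± 27.8 CPM in unstimulated cells (0.70 ± 0.06, adjusted p = 1.4e-05) and from 102 ± 19.2 to 172 ± 32.2 CPM in stimulated cells (0.77 ± 0.16, adjusted p = 0.016, lost without untreated stimulated replicate 2 or PGE2-treated stimulated replicate 3, adjusted p up to 0.061). *Sh2d2a* rose 1.65-fold in unstimulated cells, from 375 ± 15.4 to 610.4 ± 37.6 CPM (0.72 ± 0.06, adjusted p = 1.2e-05), the largest rise there. *Lcp2* fell from 158 ± 11.3 to 129 ± 11.1 CPM (-0.28 ± 0.07, adjusted p = 0.0084, lost without PGE2-treated unstimulated replicate 2, adjusted p = 0.054) and from 613 ± 72.2 to 407 ± 79.5 CPM (-0.58 ± 0.14, adjusted p = 0.027, kept in 3 of 8 fits that left out 1 library, adjusted p up to 0.088). *Tespa1* fell from 20.8 ± 1.70 to 11.8 ± 0.525 CPM in unstimulated cells (-0.80 ± 0.08, adjusted p = 5.3e-05) and differed by -0.36 ± 0.10, adjusted p = 0.058 in stimulated cells, where its libraries did not overlap either. *Lat* fell in stimulated cells, from 489 ± 45.02 to 367 ± 26.1 CPM (-0.41 ± 0.08, adjusted p = 0.013, lost without PGE2-treated stimulated replicate 3, adjusted p = 0.051), and differed by -0.22 ± 0.09, adjusted p = 0.084 in unstimulated cells. *Skap1*, the partner of Fyb, fell in unstimulated cells (-0.21 ± 0.06, adjusted p = 0.022, kept in 4 of 8 fits that left out 1 library, adjusted p up to 0.1). Without the replicate block *Themis*, *Nck1*, *Grap* and *Grap2* did not pass in either state, with log2 fold changes from -0.23 (*Grap*, stimulated) to 0.16 (*Themis*, stimulated). With it *Themis* and *Grap* passed in both states and *Grap2* in unstimulated cells.

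*Plcg1* rose in unstimulated cells, from 316 ± 11.2 to 433 ± 19.7 CPM (0.48 ± 0.06, adjusted p = 0.00017), and differed by 0.47 ± 0.16, adjusted p = 0.093 in stimulated cells. *Vav1* fell in both states, with log2 fold changes of -0.27 ± 0.08, adjusted p = 0.024 and -0.29 ± 0.07, adjusted p = 0.024, kept in 3 of 8 and 2 of 8 fits that left out 1 library (adjusted p up to 0.12 and 0.09). *Rasgrp1*, the exchange factor that diacylglycerol recruits to Ras, fell in unstimulated cells (-0.37 ± 0.08, adjusted p = 0.0055) and differed by -0.08 ± 0.12, adjusted p = 0.69 in stimulated cells. *Malt1* fell in unstimulated cells (-0.16 ± 0.05, adjusted p = 0.035), kept in 2 of 8 fits that left out 1 library (adjusted p up to 0.15). *Sos1* and *Bcl10* did not pass in either state without the replicate block, and with it both passed in unstimulated cells only.

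The replicate block added calls without taking any away. In unstimulated cells the added members, with their blocked adjusted p, were *Cd3g* (0.018), *Cd247* (0.039), *Fyn* (0.00089), *Prkcq* (0.0004), *Lat* (0.00011), *Themis* (0.02), *Grap* (0.0092), *Grap2* (0.016), *Sos1* (0.041), *Bcl10* (0.011), *Ptpn2* (0.0047) and *Pag1* (3.8e-05). In stimulated cells they were *Cd28* (0.0018), *Fyn* (0.00017), *Zap70* (0.036), *Themis* (0.018), *Tespa1* (0.00045), *Grap* (0.004), *Skap1* (0.013), *Sh2d2a* (0.0013), *Plcg1* (1.9e-05), *Ptpn6* (0.0038), *Cd5* (0.041) and *Cd6* (0.0011).

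**Figure D5:**
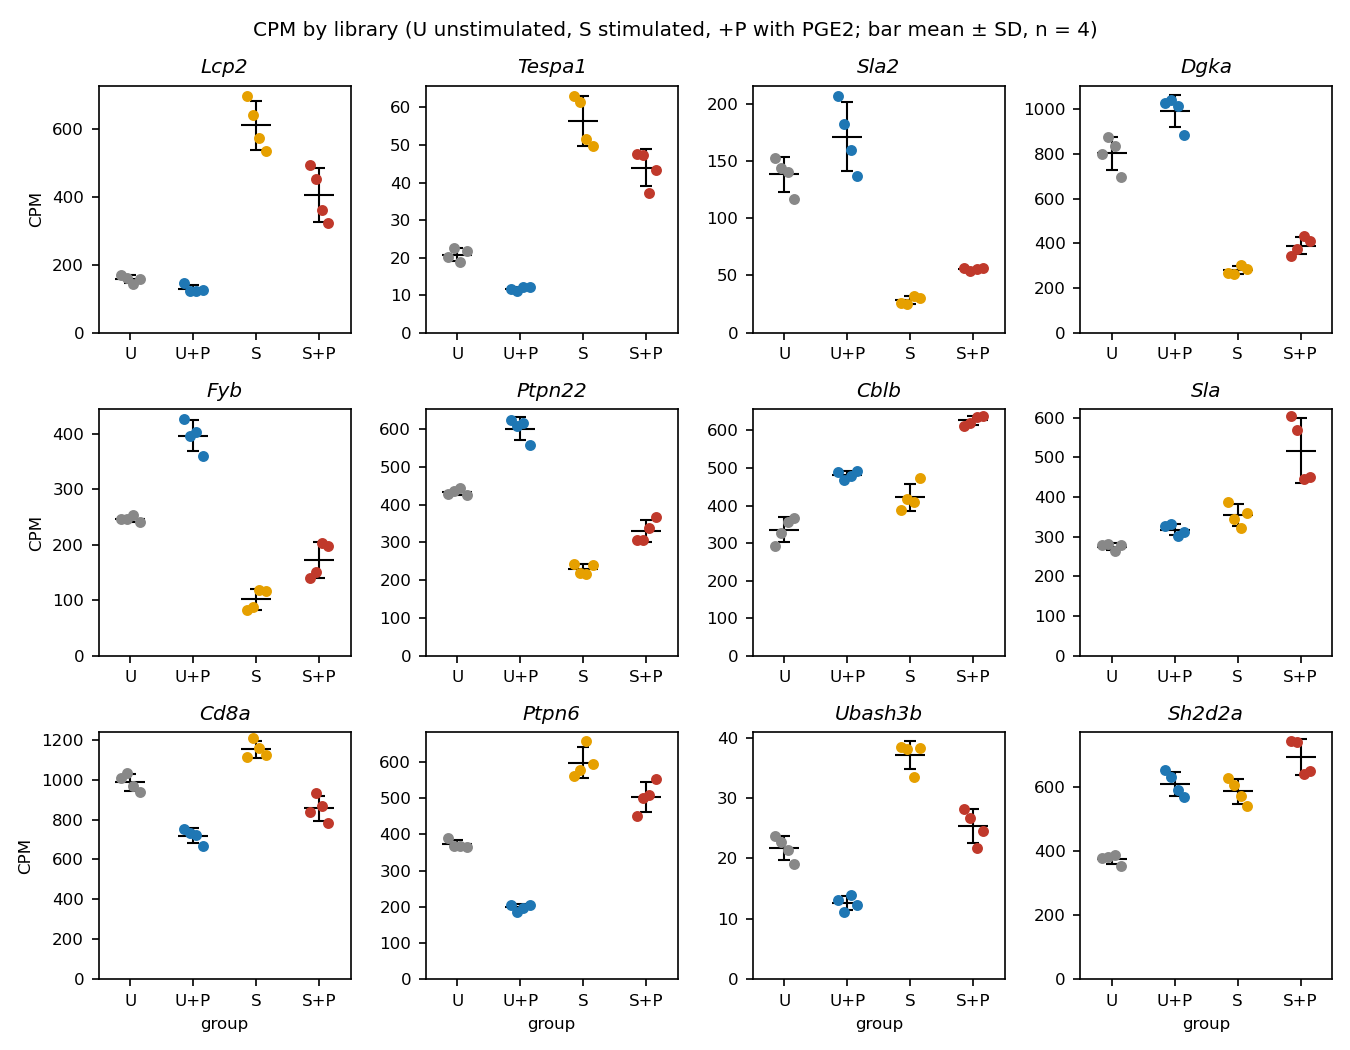
CPM (y axis, from 0) of 12 members in each library of the 4 groups (x axis; U unstimulated, S stimulated, +P with PGE2), with bars for the mean and SD of 4 libraries. *Sla2* is at 24.9 to 31.8 CPM in untreated stimulated and 53.9 to 56.5 CPM in PGE2-treated stimulated libraries, and *Ptpn6* at 186 to 205 CPM in PGE2-treated unstimulated libraries, below all others.

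Whether the PGE2 effect differed between unstimulated and stimulated cells was tested as an interaction over all 16 libraries. Of 42 members 2 passed, 1 in each direction, and 8 had an unadjusted p under 0.05, as did 1415 of the 15096 genes tested. Of all 15096 genes tested 0.749% passed, 0.517% with a positive and 0.232% with a negative interaction, and 0.232% also reached 2-fold. For *Ptpn6* the log2 fold change with PGE2 was -0.89 in unstimulated and -0.24 in stimulated cells, an interaction of 0.66 ± 0.10, adjusted p = 0.0038, and this passed in 16 of 16 fits that left out 1 library. For *Sh2d2a* the changes were 0.72 and 0.25, an interaction of -0.46 ± 0.10, adjusted p = 0.043, which passed in 3 of 16 such fits (adjusted p up to 0.14). In both genes the libraries with neither bead nor PGE2 stood apart from the unstimulated libraries with PGE2, and the stimulated groups were closer together. *Sla2* had a log2 interaction of 0.67 ± 0.16, as large as that of *Ptpn6*, with adjusted p = 0.065. With the replicate block 4 members passed, the 2 above with *Sla2* (adjusted p = 0.029) and *Themis* (a log2 interaction of 0.30, adjusted p = 0.042). The share of all genes that passed rose with the block as well, to 2.7%.

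The wider pathway was described with a list of 90 genes outside the 42, among them TCR constant chains, Tec-family kinases, Ras proteins, the MAP kinase cascade, actin regulators and further adaptors, of which 89 were tested (*Rasgrp3* was too low). Without PGE2, stimulation changed 66 of the 89, 31 higher and 35 lower, and with PGE2 64, 31 higher and 33 lower. These are 74.2% and 71.9% of the 89, beside 66.5% and 64.2% of all genes. Among the genes of this list that passed, the largest rises in both were *Cish*, a cytokine-induced inhibitor that acts on phospholipase C gamma 1 (2.83 ± 0.14, adjusted p = 1.7e-08 without and 2.89 ± 0.24, adjusted p = 3.5e-06 with PGE2, log2 scale), *Spred1*, an inhibitor of Ras signalling (2.05 ± 0.15, adjusted p = 1.7e-07 and 1.92 ± 0.19, adjusted p = 8.5e-06), and the costimulatory receptor *Icos* (1.31 ± 0.08, adjusted p = 3.8e-08 and 1.74 ± 0.24, adjusted p = 0.0001). The largest falls were *Rasa3*, a GTPase-activating protein for Ras and Rap (-2.17 ± 0.16, adjusted p = 1.7e-07 and -1.64 ± 0.18, adjusted p = 1.6e-05), the adaptor *Gab3* (-2.06 ± 0.19, adjusted p = 1.1e-06 and -1.52 ± 0.15, adjusted p = 8e-06) and *Rasgrp2*, an exchange factor for Rap (-1.67 ± 0.12, adjusted p = 1.4e-07 and -1.49 ± 0.12, adjusted p = 3.2e-06).

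PGE2 changed 28 of the 89 in unstimulated cells, 13 higher and 15 lower, and 10 in stimulated cells, 5 in each direction. These are 31.5% and 11.2% of the 89, beside 28.4% and 9.84% of all genes. Among those that passed in unstimulated cells the largest rises were the adaptors *Gab2* (1.41 ± 0.23, adjusted p = 0.0009) and *Skap2* (0.47 ± 0.08, adjusted p = 0.0009) and the Ras exchange factor *Sos2* (0.46 ± 0.06, adjusted p = 0.00012), and the largest falls *Trat1*, an adaptor that binds the TCR complex (-1.04 ± 0.08, adjusted p = 5.9e-06), *Sh3bp2* (-0.63 ± 0.08, adjusted p = 0.00024) and *Rasgrp2* (-0.62 ± 0.14, adjusted p = 0.0074). Among the 10 that passed in stimulated cells the largest rises were the Tec-family kinase *Txk* (0.85 ± 0.09, adjusted p = 0.00046), *Rasa3* (0.68 ± 0.11, adjusted p = 0.0038) and the inositol phosphatase *Inpp5d* (0.40 ± 0.10, adjusted p = 0.03), and the largest falls *Sh3bp2* (-0.64 ± 0.10, adjusted p = 0.0034), *Rasgrp2* (-0.48 ± 0.08, adjusted p = 0.0044) and *Trat1* (-0.41 ± 0.09, adjusted p = 0.019). Some genes that did not pass had larger log2 fold changes than *Inpp5d*, among them *Gab2* (0.67 ± 0.26, adjusted p = 0.13), *Pik3r1* (0.58 ± 0.20, adjusted p = 0.1) and *Icos* (0.54 ± 0.24, adjusted p = 0.18). *Trat1* was the 1 gene of the 89 that passed the interaction test (0.64 ± 0.12, adjusted p = 0.018).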

How the data were processed

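Poly(A) RNA of 16 samples was sequenced as paired ends. The authors aligned reads with HISAT2 (2.0.5) to GRCm38 and counted them per gene with featureCounts (1.5.0-p3). The deposited tables hold raw counts per gene and, made from them by the authors, FPKM values, which divide a count by gene length and library total. The annotation release and the strand setting are not given in the sources used here. Every sample column was mapped to its sample by name.

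Groups were taken from the labels. Raw counts were fitted with edgeR (4.0.16, R 4.3.3): filterByExpr with a minimum count of 10, TMM scaling and the quasi-likelihood F-test on the samples of the groups compared, or on all 16 for the interaction. P-values were adjusted by the Benjamini-Hochberg method over all genes tested, and a gene was called at an adjusted p under 0.05, and as a DEG with at least a 2-fold change as well. The SE of a log2 fold change was derived from its F statistic. Figures and quoted CPM used TMM factors of all 16 libraries. FPKM served for levels between genes and for the limma (3.58.1) alternatives on log2(FPKM + 1) and log2(FPKM + 0.1), with a mean FPKM of at least 1 or no filter. DESeq2 (1.42.0), other scalings and filters, 1 fit of all samples, a replicate block and leaving out each library were the other alternatives. The fitting code was tested on simulated data.

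Replicate numbers in the labels were checked as pairs by correlating deviations from group means of same-numbered libraries. These were 0.112 to 0.359 for stimulation without PGE2, 0.137 to 0.444 for PGE2 in unstimulated and 0.190 to 0.423 for PGE2 in stimulated cells. All were over 0.1, so the numbers were taken to pair the libraries there. In the same order, 8, 8 and 6 of 8 libraries correlated best with their own number. Replicate libraries differed beyond sampling noise in every group.

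Members were all 42 genes of the list. Values in every library were given for up to 5 called members with the largest rise and 5 with the largest fall in each pairwise comparison (mean of at least 1 CPM), for the CD3, zeta and CD8 chains, *Lck*, the related pairs and any member called in the interaction. Members and lists were chosen with earlier results of these data known. Of the wider list, up to 3 called genes in each direction were named. Promoter windows and gene positions were read from RefSeq (GRCm38.p6) and the count table, and overlaps from GENCODE M21, which holds 54495 of the 54532 gene identifiers.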

Additional observations from a re-analysis of the deposited data

Results flagged for a closer look

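For 30 members given by library, each group of 4 was examined for a library standing apart from the other 3 by Dixon's criterion at the 95% level, 120 groups in all. Chance alone would mark about 1 group in 20, and 4 were marked. *Lcp2* stood at 145 CPM in PGE2-treated unstimulated replicate 1, above 122 to 126 CPM in the others, a gap of 0.834 of the group's range. *Ubash3b* stood at 33.6 CPM in untreated stimulated replicate 3, below 38.2 to 38.4 CPM in the others (0.949 of the range). *Dgka* stood at 884 CPM in PGE2-treated unstimulated replicate 4, below 1015 to 1040 CPM. *Dgkz* stood at 344 CPM in untreated unstimulated replicate 4, below 412 to 420 CPM (0.901 of the range).

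The effect of PGE2 differed between stimulated and unstimulated cells, by the interaction test, for *Ptpn6*, with a difference of 0.66 on the log2 scale, and for *Sh2d2a*, with a difference of -0.46. *Ptpn6* fell by 0.89 with PGE2 in unstimulated cells and differed by -0.24 in stimulated ones. *Sh2d2a* rose by 0.72 in unstimulated cells and differed by 0.25 in stimulated ones. The *Sh2d2a* interaction was lost without a filter on low counts, with RLE scaling, in each limma fit and in most fits that left out a library.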

How the results depend on the processing

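Over the 42 members and 5 comparisons, no called fold change reversed its sign under any alternative run. Members called numbered 35 to 39 for stimulation without PGE2 and 31 to 35 with PGE2 under every alternative. Over all genes these fits called 35.7% to 72.3% and 34.8% to 69.8%, the lowest shares coming without a filter. For PGE2 in unstimulated cells the 23 called became 13 with limma on log2(FPKM + 1) without a filter and 35 with the replicate block, and ranged from 13 to 23 when 1 library was left out. Of all genes 11.6%, 47.8% and 21.3% to 27.8% passed in these fits. For PGE2 in stimulated cells the 13 became 6 and 25 under the same alternatives and ranged from 7 to 14, and the DEGs went from 0 to 1 (*Sla2*) with upper-quartile scaling and ranged from 0 to 1 with a library left out. The shares of all genes called beside the 6, the 25 and the range were 2.62%, 39.8% and 4.49% to 13.2%. In the interaction the 2 members became 1 with RLE scaling and with each of the 3 limma fits, 4 with DESeq2, 4 with the replicate block, and 1 to 2 with a library left out. Of all genes 0.537% passed with RLE, 0.131% to 0.471% with limma, 0.83% with DESeq2 and 2.7% with the block. With a library left out 0.285% to 1.41% passed. The causes were not tested. Upper-quartile scaling moved the median of all genes by stimulation to -0.13 in both arms, with 12 members higher and 23 lower without PGE2 and 12 and 22 with it.

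For stimulation with PGE2, same-numbered libraries correlated at 0.0439 to 0.281, not all over 0.1, and 5 of 8 correlated best with their own number. The check of that comparison alone therefore did not settle whether the numbers pair its libraries. Taking the numbers as pairs in the other comparisons links the same numbers across its groups as well. The block left 35 members called, beside 67.5% of all genes. Apart from the calls it added, given with the results, it changed no member's call. With 4 libraries a group, small differences are within the spread, and a missed threshold does not show equality. Counting intervals play little part at 333 or more counts per member.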
